A study of Mus musculus with 9 samples.

Results

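Gene expression was compared between cardiac fibroblasts in which Gata4 was targeted with guide RNAs (Gata4 KD) and cardiac fibroblasts that received scrambled guides (control). The comparison uses 6 of the 9 RNA sequencing libraries of the study, 3 of each group, taken by the guide RNA given in the labels, where replicates carry the letters a, b and c. All cells were primary cardiac fibroblasts of adult mice, 8 to 10 weeks old, on a C57BL/6 background with the Cas9 and green fluorescent protein transgene RosaCas9-EGFP, so controls carried the nuclease as well. They were cultured for 3 days, sorted as CD45-CD31-CD90+ to leave out blood and endothelial cells, replated, and transfected 6 days later at 80 to 90% confluency. According to the paper the mice were male, and RNA was collected at a single time, days after transfection. The cells were a lipid-transfected pool and no edited clones were picked, so each library mixes edited and unedited cells. The study calls the replicates of each condition biological, but the labels name no animal or culture for a library, and p-values therefore measure the spread between these libraries, which may be technical.

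Gata4 is a zinc finger transcription factor that binds the sequence GATA and takes part in forming the embryonic heart, together with its relatives Gata5 and Gata6 and the cofactor Zfpm2. Adult cardiac fibroblasts keep expressing several of these factors. Fibroblasts make the collagen matrix of the heart, and they also secrete growth factors and cytokines and respond to hormones, which are the gene groups described here.

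The guides are shown because they define the knockdown. In the lines that follow the last bases in capitals are the PAM, the short motif that Cas9 needs beside its target, which was read from the GENCODE M21 transcript. Scrambled guides have no target and no PAM.
Gata4_sgRNA1: cagagagtgtgtcaattgtgGGG
Gata4_sgRNA3: gcaggactgggctgtcgaagGGG
NTC_sgRNA1: gcgaggtattcggctccgcg
NTC_sgRNA2: gctttcacggaggttcgacg
The gene itself, Gata4 (ENSMUSG00000021944), spans 63198922 to 63271692 of chromosome 14, minus strand, in the mouse build GRCm38. Gata4_sgRNA1 matched chromosome 14 from 63204711 to 63204730 on the minus strand, in coding sequence of exon 3 of the 7 exons of the first listed transcript, behind 641 of 1326 coding bases. Gata4_sgRNA3 matched 63240581 to 63240600 on the plus strand, in coding sequence of exon 2, behind 548 coding bases. Neither scrambled guide matched any annotated transcript along its 20 bases, on either strand.

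The transcript of the target was lower in every library that received its guides. Expression is given in CPM, counts scaled to a common sequencing depth over the 6 libraries, and group means as mean ± SD with n = 3. Gata4 was at 165, 154 and 166 CPM in controls a, b and c, and at 53.7, 46.4 and 65.2 CPM in Gata4 KD a, b and c. The groups did not overlap, and Gata4 KD c kept the most transcript. The mean fell from 162 ± 6.79 to 55.1 ± 9.45 CPM, which is -1.55 on the log2 scale (SE 0.12, with an adjusted p of 0.00272 by the quasi-likelihood test of edgeR). Log2 fold changes here are Gata4 KD over control, SE is their standard error, and adjusted p is corrected over all genes tested. Cutting by Cas9 changes DNA, and a transcript level shows neither how many alleles were edited nor how much protein was left.

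Total counts of the 6 libraries ranged from 32622369 to 36980564. Pearson's r between libraries ranged from 0.982 to 0.993 within groups and from 0.984 to 0.989 between groups, so the ranges overlapped (computed over genes on the log2 scale, and genes do not replicate each other). Controls b and c were the least alike pair. The lowest score on the first principal component, which held 31% of the variance, was that of control c and the highest that of control b. The fibroblast markers Thy1, at 81.1 to 110 CPM, and Pdgfra, at 382 to 664 CPM, were present in all 6 libraries, and Ptprc, the gene of CD45, was at 1.61 to 2.95 CPM. Pecam1, the gene of CD31, was at 3.06 to 9.17 CPM. A summed set of transcripts that collect ribosomal RNA reads was at 6032 to 13489 CPM in controls and 6514 to 32370 CPM in Gata4 KD, the highest in Gata4 KD a, and its part in the results was not tested.

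The number of genes past the threshold depended on the test. Of 14468 genes tested, 55 (0.38%) passed an adjusted p of 0.05 with edgeR's quasi-likelihood test, and a gene is named called, higher or lower by that test unless another is given. Of these, 29 (0.2%) were higher and 26 (0.18%) lower in Gata4 KD. DESeq2 called 279 genes, an exact test on tagwise dispersions 250, a fit of all 9 libraries 148 and a fit with no filter on low counts 121. At an unadjusted p under 0.05 there were 1235 genes (8.54%), 3.9% higher and 4.64% lower. The 3 Gata4 KD libraries lay outside the range of the controls for all 55 genes, as they did at 13.8% of all genes tested (6.17% higher and 7.67% lower). The change was at least 2-fold for 14 of the higher and 11 of the lower genes, and 53 of the 55 code for protein. Among called genes detected in both groups, the thyroid hormone enzyme Dio2 had the largest rise and Lrrn4, which mesothelial cells express, the largest fall. The gene with the next lower adjusted p outside the threshold was the adhesion receptor Vcam1 (log2 fold change -0.61, adjusted p 0.0511), and the calls nearest to it inside, such as Ramp3 and Stc2, had 0.0493.

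**Figure D1:**
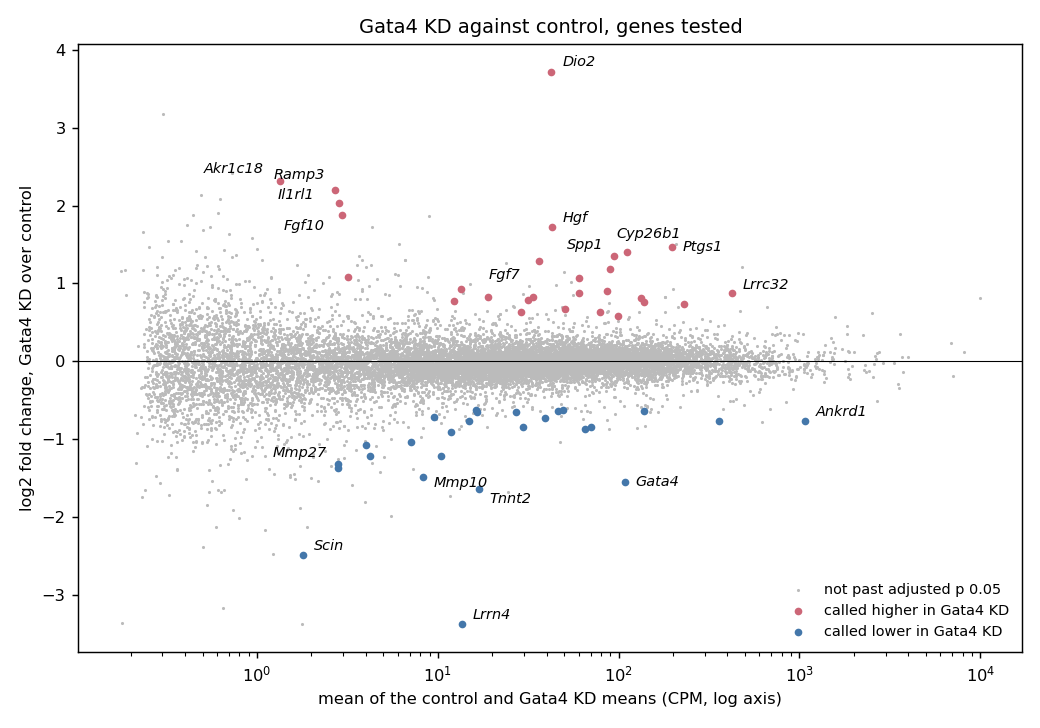
Log2 fold change of Gata4 KD over control (vertical axis) against the mean level of the group means in CPM (horizontal log axis) for each gene detected in both groups. Points in red and blue are the genes called higher and lower. Dio2 stands at 3.72 and Lrrn4 at -3.38, while most called genes lie within 2 log2 units of 0.

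A small core of genes was called whichever library was left out. The calls of 6 genes, Gata4, Lrrn4, Tnnt2, Dio2, Hgf and Cyp26b1, stood in each of the 6 fits that left out 1 library. Without control a these 6 were the only genes called, and 49 of the 55 calls were lost. The other fits gave 14 calls without control c, 10 without Gata4 KD a and 9 without Gata4 KD b, but 81 without Gata4 KD c and 189 without control b. Gata4 KD c was the Gata4 KD library closest to the control mean for 32 of the 55 genes, Gata4 among them. Gata4 KD a was closest for 15 and Gata4 KD b for 8, and this was not counted over all genes tested. On the second principal component of all genes tested, with 29% of the variance, Gata4 KD c also lay among the controls. It was at 8.18, between control c at 3.08 and control a at 14, with Gata4 KD a at -17.7 and Gata4 KD b at -31.3. The part of the Gata4 left in Gata4 KD c was not tested. The number of these 6 fits in which a call stood is given beside the genes described below.

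**Figure D2:**
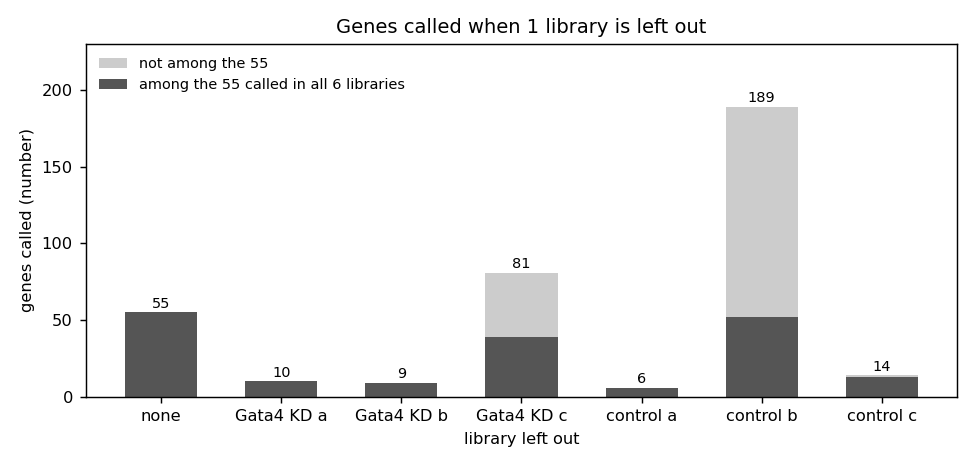
Number of genes called (vertical axis) with all 6 libraries (none) and with the library named on the horizontal axis left out, split into genes that are among the 55 and genes that are not. Without Gata4 KD a, Gata4 KD b or control a every call was one of the 55, and the 189 calls without control b held 52 of them.

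Hormone genes held 6 of the 55 calls, 5 higher and 1 lower, among 88 tested in 5 lists, a share of 6.82% beside 0.38% of all genes. The lists were chosen with earlier results of these data known, so these shares are descriptions. They cover thyroid hormone, retinoic acid, steroids and vitamin D, peptide hormones with their receptors, and prostaglandins. List medians of the log2 fold change were -0.19, 0.03, 0.13, -0.00 and -0.01 in that order, beside -0.02 over all genes tested.

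Dio2 (ENSMUSG00000007682, chromosome 12, 90724552 to 90738438, minus strand) encodes the deiodinase that converts the prohormone thyroxine to active triiodothyronine inside cells. It was at 4.9, 7.52 and 5.51 CPM in controls a, b and c and at 79.2, 86.4 and 71.3 CPM in Gata4 KD a, b and c. Every Gata4 KD library was far above every control, and the spread within each group was small beside the gap. The means of 5.98 ± 1.37 and 79 ± 7.59 CPM (SD, n = 3) differed 13.2-fold, or by 3.72 on the log2 scale (SE 0.17, adjusted p 0.000131), and the call stood in 6 of the 6 leave-one-out fits. None of the other 10 thyroid hormone genes tested was called. The transporter Slc16a10 had a log2 fold change of -0.32 (adjusted p 0.488) and the receptor Thra -0.19 (adjusted p 0.825). The other deiodinases, Dio1 and Dio3, were too low to be tested.

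Retinoic acid, the hormone-like derivative of vitamin A, is made by Aldh1a enzymes and removed by Cyp26 enzymes. Cyp26b1 (ENSMUSG00000063415, chromosome 6, 84571414 to 84593908, minus strand) was at 56.1, 60.3 and 68 CPM in controls and 160, 171 and 156 CPM in Gata4 KD. The lowest Gata4 KD library was more than 2-fold above the highest control. The rise was 2.64-fold (log2 1.40, SE 0.09, adjusted p 0.00114, call kept in 6 of 6 fits). No other of the 19 genes of the list was called by edgeR or limma-voom. DESeq2 and the exact test each called 2 higher, Cyp26b1 among them, and 1 lower. The synthesizing enzymes went separate ways without passing the threshold, with Aldh1a1 at 263 ± 12 CPM in control and 175 ± 22.2 CPM in Gata4 KD (log2 -0.59, adjusted p 0.075) and Aldh1a2 at 66.3 ± 11 and 112 ± 34.3 CPM (log2 0.75, adjusted p 0.298). The receptor gene Rarb had a log2 fold change of -0.37 (adjusted p 0.482).

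Vdr, the nuclear receptor of vitamin D, was at 63.4, 54.1 and 63 CPM in controls and 107, 115 and 116 CPM in Gata4 KD. The groups were apart by more than the range within either, and the rise was 1.87-fold (log2 0.90, SE 0.09, adjusted p 0.00919, call kept in 4 of 6 fits). It was the only gene called of 16 steroid and vitamin D genes, of which 12 had a log2 fold change above 0. Akr1c18, an enzyme that inactivates progesterone and that no list held, was among the genes with the highest rises. It was at 0.542, 0.362 and 0.419 CPM in controls and 2.47, 2.74 and 1.46 CPM in Gata4 KD (log2 2.32, SE 0.32, adjusted p 0.0314, call kept in 2 of 6 fits), and limma-voom did not call Akr1c18 (adjusted p 0.0548).

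Among peptide hormone genes, edgeR called 1 of 21 higher and 1 lower, and DESeq2 and the exact test each called 2 higher and 1 lower. Ramp3, which pairs with the calcitonin receptor-like receptor to make an adrenomedullin receptor, was at 1, 0.696 and 1.2 CPM in controls and 5.14, 5.72 and 2.5 CPM in Gata4 KD. Gata4 KD c lay between the controls and the other Gata4 KD libraries, and the log2 fold change was 2.2 (SE 0.35, adjusted p 0.0493, call kept in 1 of 6 fits). The Ramp3 call was also lost with limma-voom (adjusted p 0.111) and among genes with CPM above 1 (adjusted p 0.0524). The stanniocalcins, secreted glycoprotein hormones first known from calcium balance in fish, had values of opposite sign. Stc2 fell from 15.1, 16.1 and 14.9 CPM in controls to 7.67, 6.98 and 9.94 CPM in Gata4 KD (log2 -0.90, SE 0.14, adjusted p 0.0493, call kept in 1 of 6 fits and lost among genes with CPM above 1, at 0.0511). Stc1 did not pass the threshold, at 1.79, 2 and 2.25 CPM in controls and 7.45, 8.87 and 3.74 CPM in Gata4 KD (log2 1.73, adjusted p 0.0748). The natriuretic peptide clearance receptor Npr3 had a log2 fold change of 0.39 (adjusted p 0.304).

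Prostaglandins are made from membrane lipid by a phospholipase, a cyclooxygenase and a final synthase. Ptgs1, a cyclooxygenase, was at 112, 79.2 and 121 CPM in controls and 300, 352 and 214 CPM in Gata4 KD, with Gata4 KD c again the lowest of its group. It was 2.77-fold higher (log2 1.47, SE 0.21, adjusted p 0.0348, call kept in 2 of 6 fits) and the only edgeR call of 21 genes, where DESeq2 called 2 and the exact test 3. The inducible cyclooxygenase Ptgs2 was at 261, 301 and 312 CPM in controls and 640, 1065 and 324 CPM in Gata4 KD. Its libraries of 1 group differed by over 3-fold, and the log2 fold change of 1.22 did not pass (adjusted p 0.301). The phospholipase Pla2g4a (log2 0.54, adjusted p 0.329) and the synthases Ptges (0.87, adjusted p 0.391) and Ptgis (-0.48, adjusted p 0.24) did not pass either.

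**Figure D3:**
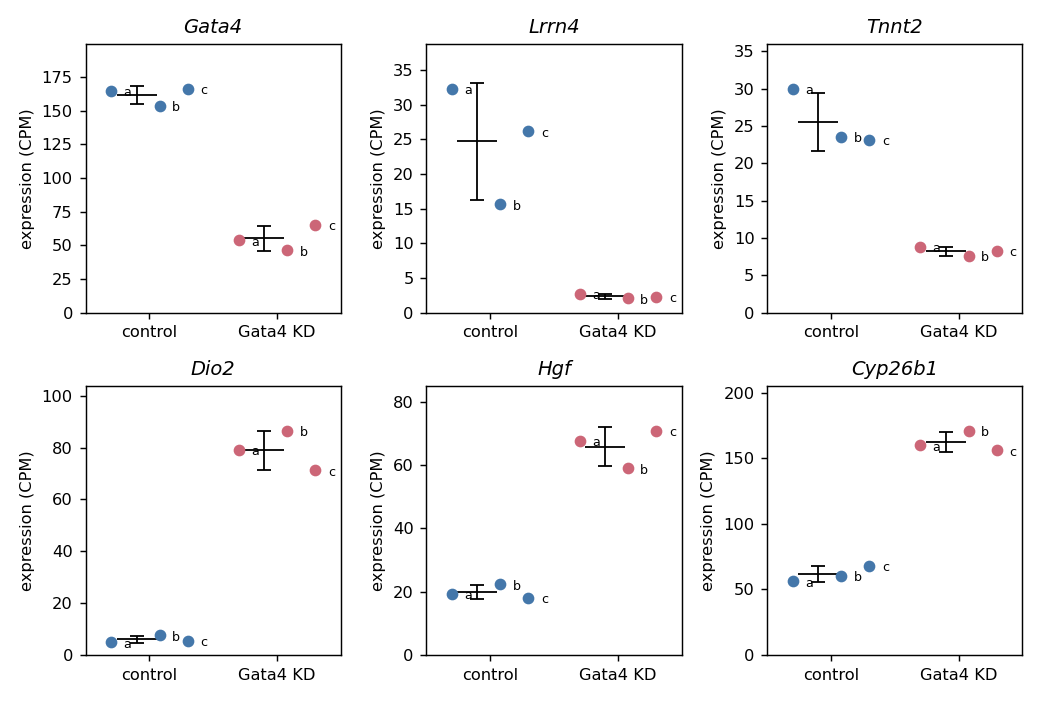
Expression in CPM (vertical axes from 0) of the 6 genes whose calls stood whichever library was left out, by group, with a point for each library (a, b, c) and the mean with SD beside them. Gata4, Lrrn4 and Tnnt2 are lower and Dio2, Hgf and Cyp26b1 higher in all 3 Gata4 KD libraries than in any control.

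Secreted growth factors and cytokines gave 4 calls among 120 genes tested in 4 lists (3.33%, beside 0.38% of all genes), and all 4 were higher in Gata4 KD. Of these, 3 were growth factors that fibroblasts send to epithelial and other neighbouring cells. Hgf (ENSMUSG00000028864, chromosome 5, 16553495 to 16620152, plus strand), hepatocyte growth factor, was at 19.4, 22.3 and 18 CPM in controls and 67.8, 59.1 and 70.9 CPM in Gata4 KD. The lowest Gata4 KD library was over 2-fold above the highest control. Hgf rose 3.31-fold (log2 1.73, SE 0.11, adjusted p 0.00114, call kept in 6 of 6 fits).

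Fgf7 and Fgf10 are closely related fibroblast growth factors that signal through the same receptor on epithelial cells. Fgf7 was at 20.2, 25.5 and 17.3 CPM in controls and 54.6, 53.9 and 45.3 CPM in Gata4 KD (2.44-fold, log2 1.29, SE 0.15, adjusted p 0.018, call kept in 3 of 6 fits). Fgf10 was at 0.921, 1.48 and 1.38 CPM in controls and 4.79, 5.26 and 3.8 CPM in Gata4 KD (3.67-fold, log2 1.87, SE 0.23, adjusted p 0.0245, call kept in 2 of 6 fits). Both were above the controls in every Gata4 KD library, and both were lowest in Gata4 KD c. These 3 were the only edgeR calls of 46 growth factor genes, whose median log2 fold change was 0.09, and DESeq2 and the exact test each called 5, all higher. Fgf2 was at 17.4 ± 3.13 CPM in control and 26.6 ± 1.6 CPM in Gata4 KD (log2 0.61, adjusted p 0.159), Angpt2 had a log2 fold change of 0.66 (adjusted p 0.18) and Csf1 of 0.33 (adjusted p 0.353).

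Il1rl1, which encodes the receptor of interleukin 33 and a secreted form that captures it, was at 0.975, 1.09 and 1.29 CPM in controls and 5.07, 5.72 and 2.95 CPM in Gata4 KD. The rise was 4.1-fold (log2 2.03, SE 0.28, adjusted p 0.0314, call kept in 2 of 6 fits), the only edgeR call of 31 cytokine genes. DESeq2 and the exact test each called 3 of that list, and limma-voom called 0, with an adjusted p of 0.0634 for Il1rl1. Il11, a gp130 cytokine, lay just outside the threshold at 4.58, 2.42 and 4.61 CPM in controls and 15.9, 17.2 and 9.22 CPM in Gata4 KD (log2 1.86, adjusted p 0.0519). Il6 was at 91.7 ± 17.2 CPM in control and 134 ± 1.92 CPM in Gata4 KD (log2 0.54, adjusted p 0.178). Of 31 chemokine genes none was called by edgeR at the adjusted threshold. At an unadjusted p under 0.05, 4 were higher and 8 lower, beside 3.9% and 4.64% of all genes, with a list median of -0.26. Cxcl5 had a log2 fold change of 1.15 (adjusted p 0.0782), Cxcl12 of 0.32 (adjusted p 0.227) and Ccl5 of -0.65 (adjusted p 0.327). No gene of the insulin-like growth factor system was called among 12 tested. Of these, 2 had an unadjusted p under 0.05, beside 8.54% of all genes.

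**Figure D4:**
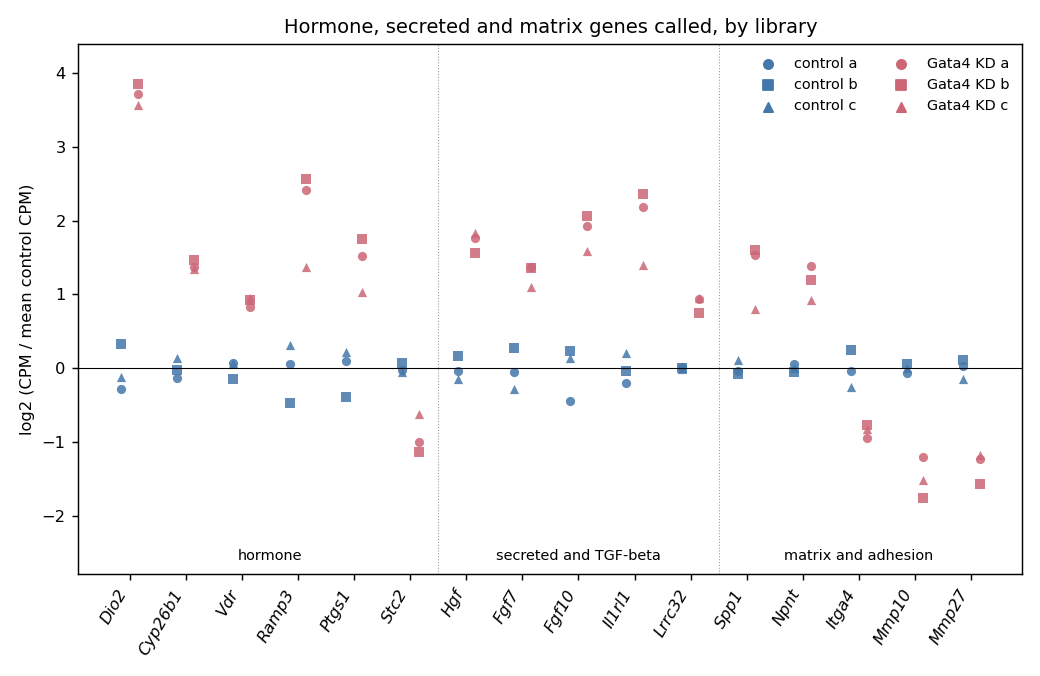
Log2 ratio of each library's CPM to the control mean (vertical axis) for the called hormone, secreted, TGF-beta, matrix and adhesion genes, with controls in blue, Gata4 KD in red and the replicate shown by the marker. The 3 Gata4 KD libraries are on 1 side of the 3 controls for each of these genes, and Gata4 KD c (triangle) is nearest the controls for genes such as Ramp3, Ptgs1, Il1rl1 and Spp1.

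Signalling pathways held 1 call among 106 genes tested (0.943%, beside 0.38% of all genes). Lrrc32, also called GARP, tethers latent TGF-beta to the cell surface. It was at 300, 298 and 296 CPM in controls and 570, 500 and 578 CPM in Gata4 KD. The controls were nearly equal, and the rise was 1.84-fold (log2 0.88, SE 0.08, adjusted p 0.00883, call kept in 4 of 6 fits). The other 18 TGF-beta genes tested, ligands, receptors and SMADs among them, were not called. Only Lrrc32 had an unadjusted p under 0.05, beside 8.54% of all genes. Of 29 BMP and GDF genes, 23 had a log2 fold change above 0 and none was called. At an unadjusted p under 0.05, 6 were higher and 2 lower, beside 3.9% and 4.64% of all genes. The receptor Bmpr1b (log2 0.96, adjusted p 0.1), the signal transducer Smad9 (0.58, adjusted p 0.119) and the target genes Id4 (1.23, adjusted p 0.122) and Id2 (0.35, adjusted p 0.316) had the smallest p.

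None of 32 Wnt genes, 14 Notch genes and 12 genes of nitric oxide and cGMP signalling was called. At an unadjusted p under 0.05 there were 6, 2 and 4 in these lists, beside 8.54% of all genes. The largest of the named differences was in Gucy1a2, a subunit of soluble guanylate cyclase, the receptor of nitric oxide, at 14.1 ± 4.46 CPM in control and 33.7 ± 5.4 CPM in Gata4 KD (log2 1.26, adjusted p 0.0674). Wnt11 had a log2 fold change of 1.01 (adjusted p 0.117) and the Notch ligand Jag1 of -0.68 (adjusted p 0.327).

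Matrix genes gave 4 calls among 171 tested (2.34%, beside 0.38% of all genes), 2 higher and 2 lower, and none of them was a collagen. Spp1, osteopontin, a secreted matricellular protein bound by integrins, was at 52, 50.2 and 57.4 CPM in controls and 154, 161 and 92.6 CPM in Gata4 KD (2.56-fold, log2 1.36, SE 0.19, adjusted p 0.0348, call kept in 2 of 6 fits). Npnt, nephronectin, another integrin ligand, was at 56.6, 52.7 and 54.7 CPM in controls and 143, 125 and 104 CPM in Gata4 KD (2.27-fold, log2 1.18, SE 0.12, adjusted p 0.00919, call kept in 4 of 6 fits). Both were lowest in Gata4 KD c and still well above the controls there. Tnc, tenascin C, was at 1986 ± 208 CPM in control and 3049 ± 339 CPM in Gata4 KD without passing the threshold (log2 0.62, adjusted p 0.0888). In the list of 38 matricellular and elastic fibre genes the median was 0.04, and DESeq2 called 5 and the exact test 4 where edgeR called 2.

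Both called metalloproteinases were lower. Mmp10, stromelysin 2, was at 11.6, 12.6 and 12.2 CPM in controls and 5.26, 3.59 and 4.24 CPM in Gata4 KD. The controls varied little, and the mean fell 2.79-fold (log2 -1.48, SE 0.15, adjusted p 0.0116, call kept in 5 of 6 fits and lost without control a, at 0.091). Mmp27 was at 4.06, 4.32 and 3.6 CPM in controls and 1.69, 1.34 and 1.76 CPM in Gata4 KD (log2 -1.32, SE 0.18, adjusted p 0.0324, call kept in 2 of 6 fits). Their genes lie near each other on chromosome 9, Mmp10 from 7502352 to 7510240 and Mmp27 from 7571396 to 7581885. The other 18 metalloproteinase and TIMP genes tested were not called, and the list median was -0.00.

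No collagen gene passed the threshold in either direction with edgeR. Among fibril-forming collagens DESeq2 called 1 higher and 1 lower, and the exact test 1 higher. Each of these 2 tests also called 1 of the other collagens higher. Of 11 fibril-forming collagens 8 had a log2 fold change below 0, with a median of -0.24. At an unadjusted p under 0.05 there were 4 lower and 1 higher, beside 4.64% and 3.9% of all genes. Col1a1, a chain of type I collagen, was at 4048, 3948 and 3960 CPM in controls and 3042, 2657 and 3686 CPM in Gata4 KD (log2 -0.35, SE 0.12, adjusted p 0.423). All Gata4 KD libraries were below the controls, with Gata4 KD c nearest to them. Col2a1, the cartilage type collagen, had a log2 fold change of 0.50 (adjusted p 0.159) and Col27a1 of -0.67 (adjusted p 0.263). Of 25 genes that hydroxylate, crosslink or trim collagen 20 were below 0 and none was called. Of the 25, 5 were lower at an unadjusted p under 0.05, beside 4.64% of all genes. Among these, Pcolce2 had a log2 fold change of -0.60 (adjusted p 0.1), Loxl2 of -0.56 (adjusted p 0.279) and Loxl4 of -0.35 (adjusted p 0.263).

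None of 14 other collagens, 24 basement membrane genes, 23 proteoglycan and hyaluronan genes and 16 ADAMTS genes was called. At an unadjusted p under 0.05 these lists held 1, 9, 0 and 7, beside 8.54% of all genes. Col18a1, the source of endostatin, had a log2 fold change of -0.67 (adjusted p 0.182), and the protease gene Adamts9 of -0.56 (adjusted p 0.128).

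Adhesion genes gave 1 edgeR call among 49 (2.04%, beside 0.38% of all genes), an integrin. Of 29 integrins and matrix receptors DESeq2 and the exact test each called 3. Itga4, an integrin chain that binds fibronectin and the adhesion molecule Vcam1, was at 88, 107 and 75.9 CPM in controls and 46.6, 53.1 and 50.8 CPM in Gata4 KD (1.8-fold lower, log2 -0.85, SE 0.13, adjusted p 0.0449, call kept in 2 of 6 fits). Vcam1 was below the controls in all 3 Gata4 KD libraries, at 858, 884 and 749 CPM in controls and 561, 498 and 575 CPM in Gata4 KD, and did not pass (log2 -0.61, SE 0.10, adjusted p 0.0511). The cadherins Cdh2 (log2 -0.43, adjusted p 0.0992) and Cdh3 (-0.81, adjusted p 0.112) did not pass either. Of 20 cell junction genes tested, Vcam1 and these cadherins included, edgeR called none. DESeq2 and the exact test each called 1 higher and 3 lower. At an unadjusted p under 0.05, 2 junction genes were higher and 7 lower, beside 3.9% and 4.64% of all genes. The summed level of the list was 1964 to 2268 CPM in controls and 1607 to 1755 CPM in Gata4 KD. The collagen receptors Itga2 (1.06, adjusted p 0.176) and Ddr1 (-0.43, adjusted p 0.195) had differences of opposite sign.

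**Figure D5:**
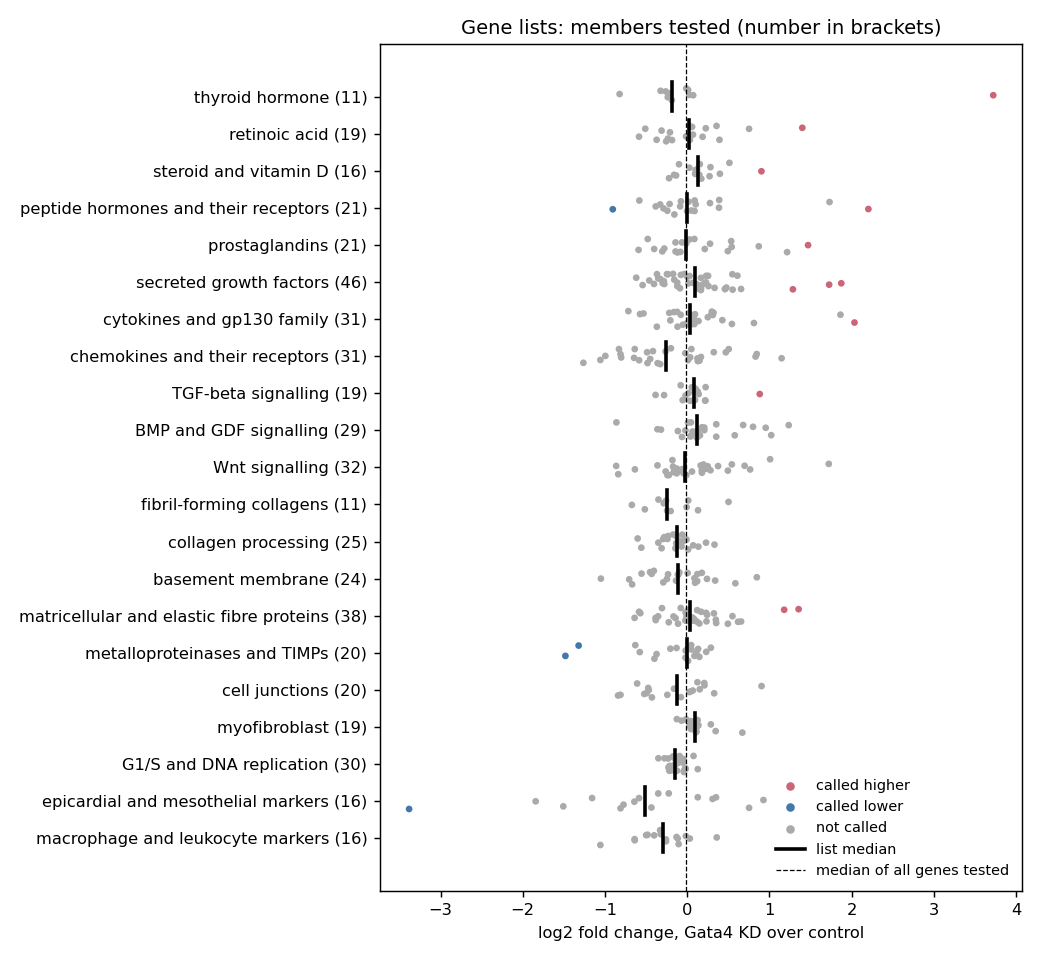
Log2 fold change of Gata4 KD over control (horizontal axis) for each tested member of 21 gene lists, with called genes in colour, the list median as a bar and the median of all genes as a dashed line. Single called genes such as Dio2 lie far from the median of their list. The fibril-forming collagens sit around a median of -0.24 and the chemokines around -0.26, with none called by edgeR in either list.

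The heart development factors themselves showed no further call. Of 6 GATA factors and FOG cofactors tested, only Gata4 passed. Gata6 was at 39.9 ± 5.87 CPM in control and 44.1 ± 0.852 CPM in Gata4 KD (log2 0.14, adjusted p 0.792), and Gata2 had a log2 fold change of 0.50 (adjusted p 0.308). Gata5 was too low to be tested. Of 19 other cardiogenic factors none was called by edgeR. At an unadjusted p under 0.05 there were 2 higher and 1 lower of these factors, beside 3.9% and 4.64% of all genes. Among them Tcf21, which marks cardiac fibroblasts, was at 182 ± 16.3 CPM in control and 119 ± 34.4 CPM in Gata4 KD (log2 -0.61, adjusted p 0.337) and Tbx18 had a log2 fold change of 0.31 (adjusted p 0.251). Tbx20 was at 997 ± 277 CPM in control and 695 ± 198 CPM in Gata4 KD and did not pass (log2 -0.52, SE 0.24, adjusted p 0.636). The paper counts Tbx20 among the genes dysregulated by Gata4 knockdown.

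Both genes that edgeR called among 78 cell type markers tested (2.56%, beside 0.38% of all genes) were lower in Gata4 KD. Lrrn4 (ENSMUSG00000043110, chromosome 2, 132868305 to 132880891, minus strand), a leucine-rich repeat membrane protein of mesothelial cells, was at 32.3, 15.6 and 26.2 CPM in controls and 2.73, 2.08 and 2.31 CPM in Gata4 KD. Controls differed among themselves by about 2-fold, and all were far above Gata4 KD. The fall was 10.4-fold (log2 -3.38, SE 0.27, adjusted p 0.00272, call kept in 6 of 6 fits). Of 16 epicardial and mesothelial markers tested, 8 were lower and 3 higher at an unadjusted p under 0.05, beside 4.64% and 3.9% of all genes, and the list median was -0.51. DESeq2 and the exact test each called 7 of these markers lower and 1 higher. The summed level of that list was 604 to 712 CPM in controls and 533 to 672 CPM in Gata4 KD. Of the 16 markers, 11 had a log2 fold change below 0 and 5 above. The uroplakin genes Upk1b (log2 -1.16, adjusted p 0.201) and Upk3b (-1.51, adjusted p 0.247) did not pass. The epicardial markers Aldh1a2 (0.75, adjusted p 0.298) and Tbx18 (0.31, adjusted p 0.251) of the same list were above 0 and did not pass either. Wt1 was at 0.523 to 1.01 CPM in all libraries. In bulk RNA, fewer cells of a type and less RNA per cell cannot be told apart.

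Tnnt2 (ENSMUSG00000026414, chromosome 1, 135836354 to 135852260, plus strand), cardiac troponin T of the contractile apparatus, was at 30, 23.5 and 23.2 CPM in controls and 8.83, 7.61 and 8.26 CPM in Gata4 KD. The groups were well apart, with a 3.11-fold fall (log2 -1.64, SE 0.13, adjusted p 0.00272, call kept in 6 of 6 fits). Of 21 cardiomyocyte markers 4 were high enough to be tested and 1 was called. The summed level of the list was 30.3 to 38 CPM in controls and 13.2 to 15.1 CPM in Gata4 KD, most of it Tnnt2. Myh6, the myosin heavy chain that defines adult mouse cardiomyocytes, was at 0 to 0.0313 CPM. Macrophage and leukocyte markers had no call, with 14 of 16 below 0 and a summed level of 61.5 to 70.7 CPM in controls and 34.7 to 62.7 CPM in Gata4 KD. Their part in these results was not tested.

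Myofibroblast genes, which contract and mark activated fibroblasts, had no call among 19, with 15 above 0 and a median of 0.10. Cnn1 had a log2 fold change of 0.67 (adjusted p 0.19) and Tagln of 0.29 (adjusted p 0.51). Cell cycle genes showed small differences on the low side, with 28 of 30 genes of DNA replication and 26 of 32 of mitosis below 0, medians of -0.15 and -0.07, no call and none at an unadjusted p under 0.05. None of 24 p53 targets or 35 interferon-stimulated genes was called. These lists held 1 and 0 at an unadjusted p under 0.05, beside 8.54% of all genes. Among interferon-inducible GTPases Tgtp1 was called (log2 0.74, adjusted p 0.0245, call kept in 2 of 6 fits), but 77% of its 75 base windows also occur in another gene, so that its count is uncertain. Nr4a1, an orphan nuclear receptor of the early response to stimuli, was called higher (1.73-fold, log2 0.79, SE 0.12, adjusted p 0.0493, call kept in 1 of 6 fits). That call was also lost among genes with CPM above 1 (adjusted p 0.0511) and with all 9 libraries (adjusted p 0.132).

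The 27 lists in which edgeR called no gene held 480 genes tested, of which DESeq2 called 32, the exact test on tagwise dispersions 24 and limma-voom 0. They include 12 general fibroblast markers, 14 endothelial, 8 smooth muscle and pericyte, 4 Schwann cell and 5 adipocyte markers, with medians of -0.10, 0.17, 0.08, -0.16 and 0.21. Of the fibroblast markers, 1 was higher and 4 lower at an unadjusted p under 0.05, beside 3.9% and 4.64% of all genes. DESeq2 and the exact test called none of them. Their summed level was 12489 to 13070 CPM in controls and 9702 to 12391 CPM in Gata4 KD. The endothelial receptor gene Kdr had a log2 fold change of 0.97 (adjusted p 0.0996), and summed endothelial markers were at 603 to 648 CPM in controls and 603 to 749 CPM in Gata4 KD. Control means of Kdr, Pecam1 and Flt1 were 2.82, 5.52 and 4.67 CPM, a small part of that sum. None of 7 targets of the aryl hydrocarbon receptor, which senses foreign compounds, was called, and their median was 0.06.

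Outside the lists lay 34 of the 55 calls. Among the 10 with the largest falls were Scin, an actin-severing protein, Smpd3, a neutral sphingomyelinase, Gna14, a G protein alpha subunit, the transcription factor Mycn and the small GTPase Diras2. Scin was at 3.22, 2.81 and 3.15 CPM in controls and 0.407, 0.411 and 0.798 CPM in Gata4 KD (5.62-fold lower, log2 -2.49, SE 0.29, adjusted p 0.018). Smpd3 was at 17.1, 11.9 and 14.7 CPM in controls and 5.89, 5.75 and 7.13 CPM in Gata4 KD (log2 -1.22, SE 0.16, adjusted p 0.0273). In both genes every Gata4 KD library was below every control, and each call stood in 2 of 6 fits.

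Gna14 was at 6.09, 6.1 and 5.42 CPM in controls and 2.19, 2.49 and 2.89 CPM in Gata4 KD (log2 -1.21, adjusted p 0.0273). Mycn was at 5.42, 5.07 and 5.75 CPM in controls and 2.85, 2.13 and 2.7 CPM in Gata4 KD (log2 -1.08, adjusted p 0.0449). Diras2 was at 9.48, 10.2 and 9.14 CPM in controls and 4.57, 4.11 and 5.28 CPM in Gata4 KD (log2 -1.04, adjusted p 0.0273). For these 3 genes the spread within groups was small, and the calls stood in 2, 1 and 2 of 6 fits. Further genes called lower were Ankrd1, the cardiac ankyrin repeat protein (log2 -0.77, adjusted p 0.0273, call kept in 2 of 6 fits), Creb3l1, a transcription factor of collagen-secreting cells (-0.64, adjusted p 0.0449, call kept in 1), and Nr1h4, the bile acid receptor (-0.63, adjusted p 0.0493, call kept in 2). The Nr1h4 call was also lost with limma-voom (adjusted p 0.0521) and among genes with CPM above 1 (adjusted p 0.0511). Genes called higher included Adcyap1r1, the receptor of the neuropeptide PACAP (log2 0.81, adjusted p 0.0449, call kept in 2 of 6 fits), Chst15, which sulfates chondroitin chains (0.78, adjusted p 0.0245, call kept in 2), and Aass, an enzyme of lysine breakdown (1.09, adjusted p 0.0414, call kept in 1). The pseudogene Pgam1-ps2 had no count in any control and 2.03 to 6.77 CPM in Gata4 KD, at least 48.0-fold higher against a floor of 3 counts per library. Its call stood in 3 of 6 fits and was lost with all 9 libraries (adjusted p 0.0932), and as all of its windows occur in another gene its counts are uncertain.

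Promoters of the 6 genes whose calls stood whichever library was left out were searched for GATA words, since Gata4 binds such sequences. RefSeq promoters on GRCm38.p6, 250 bases before to 50 after each start, were searched on both strands for the word AGATAA, for AGATAG, for TGATAA and also for TGATAG. At least 1 of these words was held by 29.8% of all 32851 promoters. Counted by gene, over all promoters of a gene, the share was 33% of 27025 genes. Among the 10750 genes tested that had a promoter sequence it was 21.9%. For Gata4 there was no sequence, Lrrn4 and Cyp26b1 held no such word, and Tnnt2, Hgf and Dio2 each held 1. Shown are the 250 bases before the start for Tnnt2 and Hgf and 30 bases around the word for Dio2, 5′ to 3′ on the strand of the gene with the word in capitals.
Tnnt2, chr1:135836084-135836333, plus strand: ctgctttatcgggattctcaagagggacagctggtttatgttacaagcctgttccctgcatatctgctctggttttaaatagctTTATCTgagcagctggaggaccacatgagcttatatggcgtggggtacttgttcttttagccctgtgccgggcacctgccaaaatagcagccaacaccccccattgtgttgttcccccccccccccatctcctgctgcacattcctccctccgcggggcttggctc
Hgf, chr5:16553245-16553494, plus strand: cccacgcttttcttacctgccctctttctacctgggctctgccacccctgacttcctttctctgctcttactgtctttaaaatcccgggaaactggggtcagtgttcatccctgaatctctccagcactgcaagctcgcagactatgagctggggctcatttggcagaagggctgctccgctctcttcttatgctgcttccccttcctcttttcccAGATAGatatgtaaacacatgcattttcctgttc
Dio2, chr12:90738989-90739018, minus strand: gccagcggaggcagaAGATAGcaaagaggg
The words begin 166 bases before the start in Tnnt2, where it is read on the opposite strand, 34 bases before it in Hgf and 35 bases after it in Dio2, whose RefSeq start lies outside the GENCODE gene. Tnnt2 and Hgf have a second promoter in the table, which held none. A word found this way is a description of the letters and shows no binding.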

How the data were processed

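RNA sequencing of 9 libraries was deposited as 1 table, and the 6 control and Gata4 KD libraries were used for each result unless all 9 are named. The authors trimmed 75 base single-end reads by quality, aligned them with Bowtie2 to GRCm38 and estimated abundances per gene with RSEM; the submitters' processing notes name mm9 instead. The deposited unit is expected counts per gene, not normalized and held as whole numbers. RSEM divides reads among near-identical genes, and genes sharing over 50% of windows were treated as uncertain. Groups were taken from the labels, which give no batch.

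Genes kept by filterByExpr were tested in R 4.3.3 with edgeR 4.0.16 (TMM, quasi-likelihood F test, Benjamini-Hochberg, threshold 0.05, no covariate). SE is the log2 coefficient divided by the root of F. The smallest p of an exact permutation test on 1 gene is 0.1 at this group size. Symbols and positions came from GENCODE M21 (37607 of 38924 IDs). On simulated counts of this comparison over 14299 genes, 78.5% of genes changed 2-fold were recovered and 8.38% of calls were false. Genes were drawn independently there, without differences between libraries shared by many genes, so these rates may not hold for the data themselves.

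The members and the 43 gene lists were chosen with earlier results of these data known. Named were Gata4, genes past the threshold without a predicted, clone or pseudogene symbol, with values per library for the 10 highest and 10 lowest log2 fold changes at 1 CPM or more and called list members; up to 4 uncalled members of a list with the smallest p; and defining markers. Pgam1-ps2, Dio1, Dio3 and Gata5 were named outside this rule after their values were seen. Alternatives were DESeq2 1.42.0, library size alone, no filter, CPM above 1, an exact test, limma-voom (limma 3.58.1), all 9 libraries, the replicate letter as a block, robust dispersion and leaving out each library.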

Additional observations from a re-analysis of the deposited data

How the results depend on the processing

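Gata4 was called lower under each alternative, with log2 fold changes of -1.67 to -1.44 without 1 library and an adjusted p of at most 0.0345. No called gene changed direction. Main counts were 55 called, 29 higher, 26 lower and 21 list members. They were 279, 135, 144 and 71 with DESeq2, 250, 113, 137 and 62 with an exact test on tagwise dispersions, 148, 65, 83 and 39 with all 9 libraries in one fit, and 121, 61, 60 and 36 with no filter on low counts. The cause was not tested. With library size alone, CPM above 1, limma-voom and robust dispersion, 47 to 62 genes were called. Without 1 library, called genes ranged from 6 (control a) to 189 (control b), with 14 without control c, 10 without Gata4 KD a and 9 without Gata4 KD b. Higher genes ranged from 3 to 98, lower genes from 3 to 91 and list members from 6 to 39.

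With the replicate letter as a block, 5 genes were called, 2 higher and 3 lower, all 5 of them list members and among the 55. Of the genes called whichever library was left out, only Hgf was lost with the block (adjusted p 0.0516 by the quasi-likelihood test). The labels do not say whether the letters pair the samples. Deviations from group means correlated at 0.0998, -0.0760 and -0.184 for a, b and c across genes. Letter a correlated best with itself (at most 0.0177 with another letter), while b and c correlated better with another letter. Deviations of 3 libraries from their own mean cancel out within a group, so these values cannot decide whether the letters are pairs. Genes near 1 CPM are limited by their low counts.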
